A study of Homo sapiens with 8 samples.

Results

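The nucleoside transporters are 2 families of membrane proteins, and their 7 genes were chosen by symbol: SLC28A1, SLC28A2 and SLC28A3, and SLC29A1, SLC29A2, SLC29A3 and SLC29A4. All 7 were found among the 43682 gene symbols counted. SLC28A1 had been noted for its fall in these same libraries, so its difference between the groups is given as a description without a test. The other 6 genes entered by family name. RNA was sequenced from UM-RC-2, an established line of clear cell renal cell carcinoma whose own VHL gene carries the change p.Arg82Pro per the labels. VHL encodes the substrate-recognition part of a ubiquitin ligase, and its best-known substrates are the alpha subunits of the hypoxia-inducible transcription factors. Cells of both groups had been infected with lentivirus, selected in blasticidin at 10 µg/ml and grown with 10% fetal bovine serum. They stably expressed either VHL or the control construct that the labels call VEC, with 2 libraries each. Whether the cells were clones or pools, and whether the libraries came from separate cultures, was not given, so the spread between them may be technical. Replicate 1 of each group is labelled total RNA and replicate 2 polyA RNA, so replicate number and RNA type cannot be told apart.

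The SLC28 proteins are concentrative carriers: they use the sodium gradient to draw nucleosides into the cell against a concentration difference. The SLC29 proteins are mostly equilibrative carriers that let nucleosides run down their gradient in either direction. Kidney tubule cells use both kinds to recover nucleosides from the filtrate. Cells also take up nucleoside-analogue drugs through them, and ENT1 and ENT2, the products of SLC29A1 and SLC29A2, have been described as repressed by hypoxia-inducible factors in other cell types.

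The 3 tested transporter genes that were lower with VHL in both replicate pairs are shown with the 250 bases before their annotated start, to set the letters beside the expression values. All are on the plus strand of GRCh38.p14, from RefSeq. They lie at chr15:84884412-84884661 for SLC28A1, chr10:71319009-71319258 for SLC29A3 and chr7:5282693-5282942 for SLC29A4. Capitals mark each match to ACGTG or GCGTG on either strand, the core letters of the hypoxia-response element.
SLC28A1: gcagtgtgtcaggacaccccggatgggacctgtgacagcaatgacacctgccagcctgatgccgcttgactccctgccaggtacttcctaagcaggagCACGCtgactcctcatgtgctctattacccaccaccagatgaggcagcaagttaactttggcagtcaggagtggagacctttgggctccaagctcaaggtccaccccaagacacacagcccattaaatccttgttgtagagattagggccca
SLC29A3: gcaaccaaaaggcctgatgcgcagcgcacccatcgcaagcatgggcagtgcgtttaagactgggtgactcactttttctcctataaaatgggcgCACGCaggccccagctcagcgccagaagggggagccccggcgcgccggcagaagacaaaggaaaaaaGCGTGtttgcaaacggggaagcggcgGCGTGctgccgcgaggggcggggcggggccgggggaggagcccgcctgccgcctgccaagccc
SLC29A4: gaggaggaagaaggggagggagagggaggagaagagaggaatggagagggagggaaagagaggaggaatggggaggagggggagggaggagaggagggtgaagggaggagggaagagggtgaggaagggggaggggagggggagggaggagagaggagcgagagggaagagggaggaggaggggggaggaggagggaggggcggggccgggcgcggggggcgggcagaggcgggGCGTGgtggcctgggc

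The SLC28A1 window held 1 match, which began 152 bases before the start. The SLC29A3 window held 3 matches, at 156, 89 and 63 bases before the start. In the SLC29A4 window 1 match began 16 bases before the start. The table used here gave windows for 4 of the 7 genes, SLC29A1 with 2 starts, and 4 of these 5 windows held a match. In one SLC29A1 window, 2 matches on opposite strands overlapped, beginning 245 and 244 bases before the start, and the window of its other start held none. Matches are common, since 43.2% of the 35116 windows of this length in the table held at least 1. The SLC28A1 window had a GC content of 55.2%, near the median of 58.0% over all windows, against 66.4% for SLC29A3 and 70.4% for SLC29A4. A match describes the letters and was not tested as a binding site.

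The 4 libraries held between 16230291 and 50027348 counts. Values per library are CPM, each gene's counts scaled to a common library total, after TMM scaling, which corrects library totals for differences in composition, and they are not divided by transcript length. Levels are therefore compared between libraries for a gene, not between genes. The VHL gene itself gave 37.0 (VEC) and 146 CPM (VHL) in replicate 1, then 88.8 and 151 CPM in replicate 2, where introduced and own transcripts are counted together. The libraries separated by replicate number far more than by group: Pearson's r across 21673 genes, on log2(CPM + 1), was 0.991 and 0.978 between VEC and VHL of the same number, and 0.504 and 0.534 between libraries of the same group. Clustered histone genes, whose transcripts mostly lack a poly(A) tail, took 0.4997% (VEC) and 0.427% (VHL) of counts in replicate 1 and between 0.00403% and 0.00416% in replicate 2. The share of pseudogenes was 1.40% (VEC) and 2.09% (VHL) in replicate 1, against 31.3% and 25.0% in replicate 2. All 7 renal tubule markers exceeded 1 CPM in every library, and all 3 endothelial markers had 0 counts. The 4 leukocyte markers summed to at most 0.161 CPM in replicate 1 and to 1.69 and 1.77 CPM in replicate 2.

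VHL was compared with VEC within replicate numbers. Of 24417 genes tested with the replicate number as a block, 756 (3.10%) passed a Benjamini-Hochberg adjusted p of 0.05 in edgeR's quasi-likelihood test, 183 higher in VHL (0.749% of those tested) and 573 lower (2.35%). The test has 1 residual degree of freedom. Without the block, 0 genes passed in edgeR and 22 (0.0901%) had an unadjusted p under 0.05, so the calls of the blocked edgeR test rest on the pairing. DESeq2 was run with the block alone. Of all calls 24.2% were higher, against 35.3% when protein-coding genes alone were tested and 39.7% in the DESeq2 Wald test.

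Of the 7 transporters, 5 passed the filter on low counts. Besides SLC28A1, SLC29A3 and SLC29A4 were lower in VHL in both pairs, against 25.0% of all tested genes, and 0 tested members were higher in both, against 22.8%. Genes without counts in both libraries of a pair have a change of 0 there. They can be in neither class, which lowers both shares. SLC28A2 and SLC29A1 had opposite signs in the pairs. The remaining 52.3% of all tested genes had opposite signs or a change of exactly 0 in a pair. Besides SLC28A1, which is not tested here, 0 of the 4 tested members passed in edgeR with the block. At an unadjusted p under 0.05 there were 2, SLC29A3 and SLC29A4, where 12.5% of all tested genes lay under that threshold. The DESeq2 Wald test with the block also called 0 of them, with 1 at an unadjusted p under 0.05, and gave SLC29A1 no adjusted p. Over all genes it called 8.59% of the 14002 with an adjusted p, and 2690 of the 24417 lay under an unadjusted p of 0.05. The median log2 change of the 4 members besides SLC28A1 was -0.30, against -0.03 for all tested genes.

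**Figure D1:**
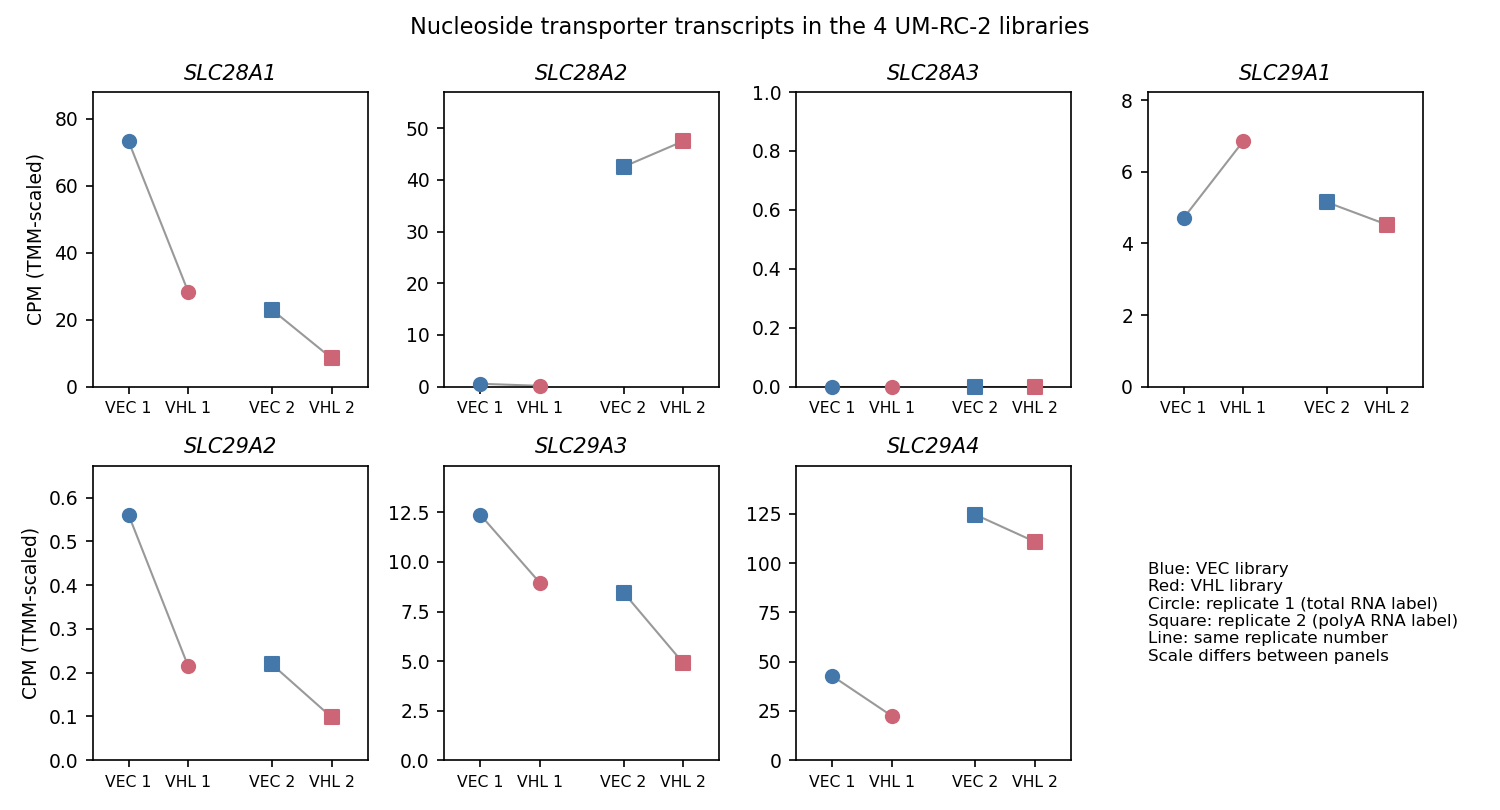
CPM (TMM-scaled, vertical axes from 0, different in each panel) of the 7 nucleoside transporter genes in the 4 UM-RC-2 libraries, with lines joining VEC and VHL of the same replicate number. SLC28A1 was at 73.4 (VEC) and 28.3 CPM (VHL) in replicate 1 and at 23.0 and 8.49 CPM in replicate 2, SLC28A2 was high in replicate 2 only, and SLC28A3 had 0 counts throughout.

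Among the concentrative carriers, SLC28A1 encodes CNT1, which prefers pyrimidine nucleosides and sits in the apical membrane of proximal tubule cells. In replicate 1 the VEC library gave 73.4 CPM (1699 counts) and the VHL library 28.3 CPM (528 counts). In replicate 2 the VEC library gave 23.0 CPM (1049 counts) and the VHL library 8.49 CPM (347 counts). VHL libraries were thus 2.59-fold and 2.71-fold lower than their VEC partners. The order of levels was VEC replicate 1, VHL replicate 1, VEC replicate 2 and VHL replicate 2, so the groups overlapped once the pairing was ignored. The ratio of VHL to VEC was 0.386 in replicate 1, with an exact 95% counting interval from 0.349 to 0.425. It was 0.369 in replicate 2, with an interval from 0.326 to 0.417. These intervals cover counting error within a pair of libraries and no biological spread. On the log2 scale the changes were -1.37 and -1.43, the values for which the gene was chosen.

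SLC28A2 encodes CNT2, the carrier of the family that prefers purine nucleosides such as adenosine. Replicate 1 gave 13 counts for VEC and 3 for VHL, or 0.561 and 0.161 CPM. Replicate 2 gave 1942 counts in each group, or 42.6 CPM for VEC and 47.5 CPM for VHL. The replicates of a group thus lay far apart, and the groups overlapped. The VHL to VEC ratio was 0.286 in replicate 1 with a counting interval from 0.0523 to 1.04. It was 1.12 in replicate 2 with an interval from 1.05 to 1.19. With equal counts, the replicate 2 ratio comes from the library totals and TMM scaling alone, which the interval treats as exact. The blocked log2 change was -0.06 ± 0.30 (SE, n = 2 per group, adjusted p = 0.991 in edgeR), and its sign turned to 0.15 without the block. Its antisense gene in the reference table, which overlaps it, was not analysed here, and whether the counting used strand is not given.

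SLC28A3 encodes CNT3, which carries purine and pyrimidine nucleosides alike. It had 0 counts in all 4 libraries. A floor of 3 counts allows a level of up to 0.161 CPM in VHL replicate 1, the shallowest library, and up to 0.0657 CPM in VEC replicate 2, the deepest.

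Among the equilibrative carriers, SLC29A1 encodes ENT1, the widely expressed carrier that takes up adenosine and many nucleoside drugs. In replicate 1 the level was 4.71 CPM with VEC (109 counts) and 6.86 CPM with VHL (128 counts). In replicate 2 these were 5.15 CPM (235 counts) and 4.53 CPM (185 counts). The highest and the lowest of the 4 values were both VHL libraries. The VHL to VEC ratio was 1.46 in replicate 1, with a counting interval from 1.12 to 1.90. In replicate 2 it was 0.879, with an interval from 0.721 to 1.07 that includes 1. The within-pair log2 changes were 0.54 and -0.18, and the blocked change was 0.16 ± 0.35 (SE, n = 2 per group, edgeR adjusted p = 0.963). No change in a common direction was thus detectable for SLC29A1.

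SLC29A2 encodes ENT2, which also moves nucleobases. It was scarce, with 13 (VEC) and 4 (VHL) counts in replicate 1, then 10 and 4 in replicate 2. The levels were 0.561, 0.214, 0.219 and 0.0979 CPM in that order. Both VHL values lay below both VEC values, by a narrow margin, as they did for 3.39% of the tested genes. Genes without counts in a VEC library cannot meet this, which lowers the share. The counting intervals of the VHL to VEC ratio, from 0.0907 to 1.24 in replicate 1 and from 0.102 to 1.55 in replicate 2, each include 1. The gene did not pass the filter. When it was kept, its blocked log2 change was -1.27 ± 1.18 (SE, n = 2 per group, edgeR adjusted p = 0.986).

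SLC29A3 encodes ENT3, a carrier of lysosomal and other intracellular membranes. The replicate 1 values were 12.4 CPM for VEC (287 counts) and 8.95 CPM for VHL (167 counts). Those of replicate 2 were 8.46 CPM (386 counts) and 4.89 CPM (200 counts). VHL was the lower library of each pair, while VHL replicate 1 exceeded VEC replicate 2. The within-pair log2 changes were -0.47 and -0.78, and the blocked change of -0.63 ± 0.30 did not pass (SE, n = 2 per group, edgeR adjusted p = 0.341). Falls at least as large as the smaller of these in both pairs were found for 6.36% of the tested genes. Genes without counts in both libraries of a pair cannot be among them, which lowers this share.

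SLC29A4 encodes ENT4, also named the plasma membrane monoamine transporter, which carries serotonin and dopamine and, among nucleosides, adenosine. Replicate 1 held 42.8 CPM with VEC (992 counts) and 22.5 CPM with VHL (420 counts). Replicate 2 held 125 CPM (5684 counts) and 111 CPM (4527 counts), so both replicate 2 libraries exceeded both of replicate 1. The log2 changes were -0.93 and -0.17, unequal in size, and the counting intervals of the ratio did not meet, from 0.468 to 0.589 in replicate 1 and from 0.855 to 0.925 in replicate 2. The blocked change was -0.53 ± 0.22 (SE, n = 2 per group, edgeR adjusted p = 0.204). This SE comes from the test statistic and does not measure the spread between the pairs. SLC29A4 passed with the stricter filter (adjusted p = 0.0162, edgeR) and among protein-coding genes alone (adjusted p = 0.0297, edgeR), so the call depends on which genes are tested. These settings called 8.72% and 7.15% of their genes. In the other 4 alternative fits with the block the adjusted p of SLC29A4 lay between 0.0612 and 0.328. Its pseudogenes SLC29A4P1 and SLC29A4P2 had 0 counts in replicate 1. In replicate 2 they had 122 and 116 counts in VEC and 36 each in VHL. How reads shared with them were counted is not given, and adding their counts to the gene gave -0.55 (adjusted p = 0.179, edgeR).

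**Figure D2:**
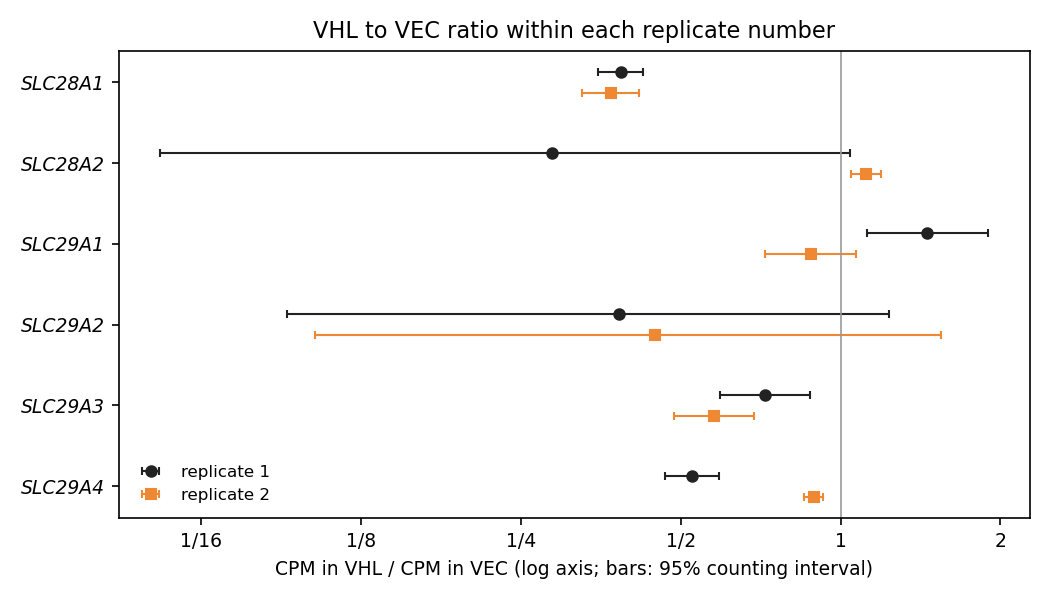
Ratio of CPM in VHL to CPM in VEC (horizontal log axis) within replicate 1 (circles) and replicate 2 (squares) for the 6 nucleoside transporter genes with counts, where bars are exact 95% counting intervals. The SLC28A1 ratios of 0.386 and 0.369 lie close together, while the SLC29A4 ratios of 0.525 and 0.889 do not.

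The concentrative and equilibrative families were set side by side as summed CPM, since the design asks for both within each replicate number. The SLC28 genes summed to 73.9 (VEC) and 28.4 CPM (VHL) in replicate 1, then to 65.5 and 56.0 CPM in replicate 2. The log2 changes of this sum were -1.38 and -0.23. SLC28A1 made up 99.2% and 99.4% of the family's counts in replicate 1. In replicate 2 it made up 35.1% of them in VEC and 15.2% in VHL, and SLC28A2 gave the rest. The concentrative sum therefore was nearly all SLC28A1 in replicate 1 and mostly SLC28A2 in replicate 2. Such shares, here and for SLC29, are of counts not divided by transcript length and do not rank transcript numbers between genes.

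The SLC29 genes summed to 60.5 (VEC) and 38.5 CPM (VHL) in replicate 1, then to 138 and 120 CPM in replicate 2, with log2 changes of -0.65 and -0.20. SLC29A4 made up between 58.4% and 92.1% of the family's counts in the 4 libraries. The sums were lower in VHL in both pairs for both families, but the SLC28 sum includes SLC28A1, which was chosen for its fall. SLC28A2, the other SLC28 gene with counts, was lower in VHL in replicate 1 (0.161 against 0.561 CPM). In replicate 2 SLC28A2 was higher in VHL (47.5 against 42.6 CPM), so the lower SLC28 sum there came from SLC28A1. The difference between the families was not tested, because SLC28A1 was chosen for its fall and there are 2 pairs.

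Other genes that make, trap or break down nucleosides were read from a list of 38, all found in the files, of which 29 were tested. ENPP3, which encodes a cell-surface pyrophosphatase that splits extracellular nucleotides, was lower in VHL, and 0 were called higher. The 1 call is 3.45% of the tested list, near the 3.10% of all tested genes. At an unadjusted p under 0.05, 5 were lower and 3 higher, where 12.5% of all tested genes lay under that threshold in either direction. The median log2 change of the list was -0.09, against -0.03 for all tested genes. In both pairs 12 were lower and 9 higher, with 8 of opposite signs. Of all tested genes 25.0% were lower and 22.8% higher in both pairs. Genes without counts in both libraries of a pair lower these shares.

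For ENPP3, replicate 1 gave 7.81 CPM with VEC (181 counts) and 3.37 CPM with VHL (63 counts). Replicate 2 gave 4.05 CPM (185 counts) and 1.35 CPM (55 counts). Both VHL libraries lay below both VEC libraries. Its blocked log2 change was -1.40 ± 0.39 (SE, n = 2 per group, edgeR adjusted p = 0.0158), lost without the block (adjusted p = 0.999991, edgeR). DESeq2 gave ENPP3 no adjusted p and an unadjusted p of 0.00521. The DESeq2 Wald test called PNP instead, which encodes the phosphorylase of purine nucleosides, at a log2 change of -0.56 (adjusted p = 2.03e-06). PNP was at 124 (VEC) and 82.1 CPM (VHL) in replicate 1, then at 32.1 and 23.4 CPM in replicate 2, and was not called by edgeR over all 24417 genes (-0.52 ± 0.21, adjusted p = 0.203). It passed in edgeR with the stricter filter (adjusted p = 0.0201) and among protein-coding genes alone (adjusted p = 0.0342). PNP was singled out after its values were seen, and so was ADA below.

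Of the 4 adenosine receptor genes 2 were tested, and both had opposite signs in the pairs. Among all tested genes 52.3% had opposite signs or a change of exactly 0 in a pair. Of 8 genes of cell-surface enzymes 4 were tested: ENPP3 was lower and ENTPD1 higher in both pairs, and the other two had opposite signs. ADORA2A and ADORA3, which encode 2 of the adenosine receptors, had 0 counts in every library. ADORA2B, the low-affinity receptor, was at 11.1 (VEC) and 6.37 CPM (VHL) in replicate 1, then at 6.20 and 6.48 CPM in replicate 2. NT5E, which encodes the AMP-hydrolysing enzyme CD73, changed by -0.23 and 0.55 on the log2 scale in the pairs. ENTPD1, which encodes the ATP-hydrolysing enzyme CD39, changed by 0.16 and 0.15 (adjusted p = 0.919, edgeR). ENTPD1 was at 23.4 and 26.2 CPM in replicate 1 and at 121 and 134 CPM in replicate 2.

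The nucleoside kinases trap nucleosides in the cell by phosphorylation. All 8 were tested and 0 passed in edgeR, 4 lower and 4 higher in both pairs, with 1 lower and 2 higher at an unadjusted p under 0.05. Of all tested genes, 3.10% passed in edgeR and 12.5% lay under that threshold in either direction. In both pairs, 25.0% of all tested genes were lower and 22.8% higher. DCK, the deoxycytidine kinase that activates gemcitabine, was at 108 and 125 CPM in replicate 1 and at 105 and 170 CPM in replicate 2 (0.45 ± 0.22, edgeR adjusted p = 0.367). UCK2, a uridine and cytidine kinase, was at 93.0 and 145 CPM and at 72.6 and 94.8 CPM (0.51 ± 0.22, edgeR adjusted p = 0.240). ADK, the adenosine kinase, changed by 0.17 and 0.32 in the pairs (edgeR adjusted p = 0.779). The DESeq2 Wald test also called 0 of the kinases, and 8.59% of all genes with an adjusted p.

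Intracellular nucleotidases undo that step. Of 7, 5 were tested and 0 passed in edgeR or DESeq2, with 1 at an unadjusted p under 0.05 in edgeR. The edgeR shares of all tested genes were 3.10% passing and 12.5% under that threshold, and DESeq2 called 8.59% of those with an adjusted p. NT5C3A, which acts on pyrimidine nucleotides, was at 193 and 124 CPM in replicate 1 and at 97.4 and 92.7 CPM in replicate 2 (-0.35 ± 0.22, edgeR adjusted p = 0.589). HPRT1, which salvages hypoxanthine and guanine, was at 33.8 and 23.8 CPM and at 129 and 119 CPM (-0.30 ± 0.22, edgeR adjusted p = 0.679). ADA, the adenosine deaminase, had 1 (VEC) and 15 (VHL) counts in replicate 1, then 6 and 17 in replicate 2. The VHL to VEC ratio of ADA was 18.6 with a counting interval from 2.86 to 783 in replicate 1, and 3.16 with an interval from 1.19 to 9.80 in replicate 2. ADA was not called over all 24417 genes (adjusted p = 0.115, edgeR) and passed among protein-coding genes alone (adjusted p = 0.0404, edgeR).

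**Figure D3:**
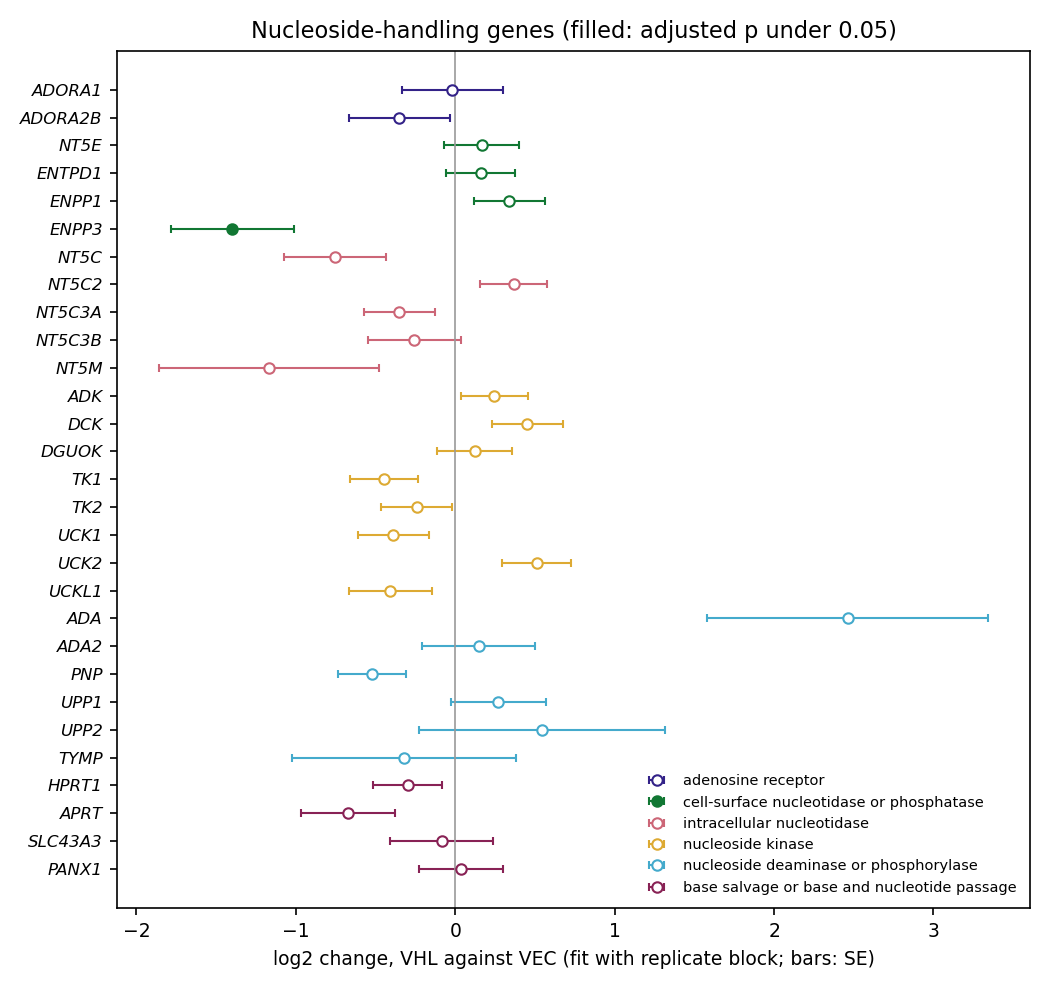
Blocked log2 change of VHL against VEC (horizontal axis) for the 29 tested nucleoside-handling genes, coloured by role, with SE as bars and filled points for an adjusted p under 0.05. ENPP3, at -1.40, is the filled point, and ADA lies farthest to the right on few counts.

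The genes that flank the transporters in the RefSeq table were read as well, since position was not used to choose the members. Of 14 flanking protein-coding genes, 11 were tested and 0 passed in edgeR or in the DESeq2 Wald test, with 2 at an unadjusted p under 0.05 in edgeR. Of all tested genes, 3.10% passed in edgeR and 12.5% lay under that threshold, and DESeq2 called 8.59% of those with an adjusted p. The 2 flanking genes under it were RMI1, before SLC28A3, at a log2 change of 0.53, and WIPI2 at -0.54. Of the tested flanking genes 4 were lower in both pairs, against 25.0% of all tested genes. SLC28A1 lies between ALPK3 and PDE8A. PDE8A, which encodes a cyclic AMP phosphodiesterase, was at 29.1 (VEC) and 31.4 CPM (VHL) in replicate 1, then at 21.5 and 18.4 CPM in replicate 2 (-0.06 ± 0.23, edgeR adjusted p = 0.986). ALPK3, an alpha-kinase gene, changed by 0.58 and -0.21 in the pairs (edgeR adjusted p = 0.971). Neither neighbour was lower in both pairs. SLC28A1 was chosen for its fall, so setting the neighbours beside it is a description only. WIPI2, an autophagy gene before SLC29A4, changed by -0.33 and -0.75 (edgeR adjusted p = 0.186), and TNRC18, which overlaps SLC29A4 in the table, by 0.73 and -0.30. Reads of TNRC18 and SLC29A4 may not be told apart where they overlap.

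The genes whose pattern over the 4 libraries was closest to that of SLC28A1 were TPI1, FAAH, AMOTL2, TGFBI and TNIP1. Closeness was the Euclidean distance between log2(CPM + 1) values centred on each gene's mean, over protein-coding genes averaging 20 counts or more, and follows the change for which SLC28A1 was chosen. The distances ran from 0.122 for TPI1 to 0.201 for TNIP1. TPI1, which encodes the glycolytic enzyme triosephosphate isomerase, was at 794 (VEC) and 317 CPM (VHL) in replicate 1, then at 250.4 and 91.4 CPM in replicate 2. FAAH, which encodes fatty acid amide hydrolase, was at 20.2 and 7.98 CPM, then at 6.82 and 2.03 CPM. Each of the 2 shared with SLC28A1 a higher level in replicate 1 than in replicate 2 and a VHL library below its VEC partner. For SLC29A4, the member with the highest mean CPM, the closest were PKIB, RAB37, NARF, PDXP and TMEM79, at distances from 0.157 to 0.253. With Pearson's correlation over the 4 libraries in place of the distance, 0 of the 5 genes were shared in either case.

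**Figure D4:**
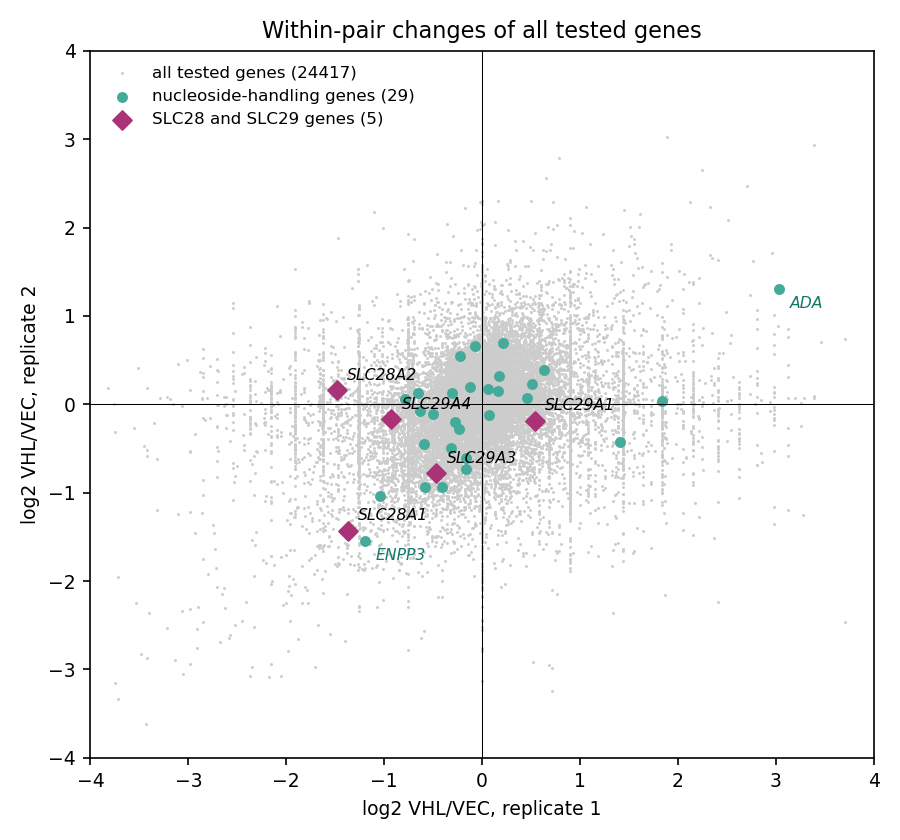
Log2 ratio of VHL to VEC in replicate 1 (horizontal) and replicate 2 (vertical) for all 24417 tested genes (grey), the 29 nucleoside-handling genes (circles) and the 5 tested SLC28 and SLC29 genes (diamonds), with 18 genes outside the plotted range of -4 to 4. SLC28A1 lies at -1.37 and -1.43, near ENPP3, while SLC28A2 and SLC29A1 lie in quadrants of opposite sign.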

How the data were processed

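The authors deposited raw counts per gene symbol for 4 RNA libraries, from sorted alignments to hg19 per the file headers. featureCounts and HOMER are named in the submitters' processing notes. The aligner, annotation, strand setting and treatment of multi-mapping reads are not given in the sources used here. H3K27ac tables were not used, because their regions carry no positions. Counts were fitted in R 4.3.3 with edgeR 4.0.16 (filterByExpr, TMM, glmQLFit, glmQLFTest, two-sided) and replicate number as a block, and adjusted by Benjamini-Hochberg over 24417 genes. The numbers pair the libraries because the labels give replicate 1 as total RNA and replicate 2 as polyA RNA, and deviations from group means of same-numbered libraries correlated at 0.982 across genes. SE is the absolute log2 change over the square root of F, and it does not measure the spread between the pairs. Within-pair changes used 2 as the prior count. As another tool, the Wald test of DESeq2 1.42.0 was run. The fit was tested on simulated data. Intervals and floors cover counting error only. Of the symbols, 97.9% matched RefSeq genes of GRCh38.p14, which gave gene classes, neighbours and promoters. Members and lists were chosen with earlier results of these data known. Named are the 7 members, called list genes and the 6 others of highest mean CPM, some of the members' neighbours and the 5 closest patterns. Further genes are named as chosen later or as examples of a role.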

Additional observations from a re-analysis of the deposited data

Results flagged for a closer look

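SLC29A1 moved in opposite directions in the pairs, with at least 10 counts in each library. The counting interval of its ratio in replicate 2, from 0.721 to 1.07, includes 1, so the fall there lay within counting error. Its log2 change from VEC to VHL was 0.54 in replicate 1, labelled total RNA, and -0.18 in replicate 2, labelled polyA RNA. The difference was not tested, since each value rests on 1 library per group.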

How the results depend on the processing

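The edgeR call counts depended on the block. With no replicate block, 0 genes passed in edgeR (22 at an unadjusted p under 0.05), 0 nucleoside-handling genes and 0 members. Leaving out each library in turn with no replicate block also gave 0 calls in each case. With the block kept, leaving out a library leaves the other pair alone and no test. The count of 756 rose to 1171 with the stricter filter of 10 counts in each library (537 shared) and to 1203 in the DESeq2 Wald test (405 shared). Nucleoside-handling calls rose from 1 to 2 with the stricter filter (ENPP3 and PNP) and to 3 among protein-coding genes alone (also ADA). Members called besides SLC28A1 rose from 0 to 1, SLC29A4, under both of these. The share called over all genes rose too, from 3.10% to 8.72% with the stricter filter and to 7.15% among protein-coding genes alone. SLC28A1 was chosen for its fall, and every setting reuses the same libraries, so its values here are a description and no separate support. The log2 change of SLC28A1 was negative in every setting run. It lay between -1.45 and -1.37 in the blocked fits and pairs and -1.39 with no replicate block, but between -2.50 and -0.32 with a library left out and no replicate block.

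Some signs turned, all without a call. SLC28A2 changed by 0.15 with no replicate block, and without single libraries by 0.16, 1.14 and 5.44 where it turned. SLC29A1 turned to values between -0.18 and -0.12, and SLC29A4 to between 0.41 and 0.68. NT5C3A turned to 0.15, HPRT1 to between 0.55 and 1.13, and ENTPD1 to between -1.55 and -0.59, with a library left out and no replicate block. The causes were not tested. The sum of the SLC28 levels, which includes SLC28A1 and its fall, changed by -0.80 (mean of pairs), and that of the SLC29 levels by -0.43. The scaling by coding length was not run, since no lengths were in the tables used here. The pseudogene setting for SLC29A4 was chosen after seeing the data. For SLC29A2, at 4 to 13 counts in each library, a change in either pair lay within counting error.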

Other observations

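SLC28A2 was among 3701 tested genes with under 1 CPM in both libraries of replicate 1 and over 10 CPM in both of replicate 2. Of these, 825 were protein-coding and 2414 were pseudogenes, and the reverse held for 80 genes. The 825 are 5.93% of the tested protein-coding genes. Of the 34 tested transporter and nucleoside-handling genes, 2 were in this class, SLC28A2 and ADA2, a secreted adenosine deaminase with 0 and 3 counts in replicate 1 and 1337 and 1224 in replicate 2. In replicate 2 ADA2 was at 29.3 (VEC) and 29.95 CPM (VHL). The class and its limits were chosen after the values of SLC28A2 were seen.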
